A study of Homo sapiens with 15 samples.

Results

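These are 34 protein-coding genes that were low when wild-type ETV6 was put back into a leukaemia line and also low when the transcription factor ERG was repressed in it. They were found among 33367 genes by a rule on mean levels, in read counts scaled to the library total of named genes (CPM). A member averaged at least 2 CPM in the tagBFP control. On the scale log2(mean CPM + 0.5), used for every difference below unless another is named, it differed by -1 or less between wild-type ETV6 and tagBFP. It also differed by -0.58 or less between wild-type and R399C ETV6, and by -0.4 or less between ERG repression and its control guide. KCNN1, BIRC7, ETV4, ETV5, SPRED2, CYBB, RAP1GAP and SLC7A11 were left out beforehand, and RAP1GAP, KCNN1 and SLC7A11 met all the numbers of the rule. No gene outside the protein-coding class met them.

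All libraries came from Reh, a human B-lymphoblastic leukaemia line known to hold the ETV6::RUNX1 fusion and to lack normal ETV6. In the first experiment transduced cell populations held a doxycycline-inducible vector and received 500 ng/ml doxycycline for 48 h. The vector encoded V5-tagged wild-type ETV6 (ETV6_WT), V5-tagged ETV6 with the R399C substitution (ETV6_R399C) or the fluorescent protein tagBFP. In the second, cells with inducible dCas9-KRAB, a repressor joined to inactive Cas9, carried a guide to the ERG promoter (sgERG) or a control guide (sgCtrl). These cells were sorted for the reporter of the guide vector and received 500 ng/ml doxycycline for 72 h. Each of the 5 groups had 3 libraries, with no statement that they were separate cultures, so any p-value below measures the spread between libraries, which may be technical. The cells of every group still carried the fusion, and all findings rest on this 1 line.

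ETV6 and ERG belong to the ETS family of transcription factors, whose DNA-binding domain reads sites built around the letters GGAA. ETV6 represses transcription, and R399C changes a residue of its DNA-binding domain, while ERG is mostly known as an activator in blood stem cells and endothelium. The title of the series points to microsatellite enhancers, stretches of repeated GGAA units at which ETS proteins can gather. A gene under such an element can thus be reached by a repressor and an activator that read the same letters. None of this was measured here, since the data are RNA levels only.

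Promoter letters were read first, because the rule used none of them. RefSeq promoters of GRCh38.p14, from 250 bases before to 50 after the start, were found for 28 of the 34 members, CCDC155 under its newer name KASH5. Those not matched include CSMD1, NRP1, RTN4RL2 and TSPAN9. GGAA, on either strand, stood in the promoters of 25 of the 28 (89.3%), against 96.6% of 8984 matched protein-coding genes with a tagBFP mean of at least 2 CPM and 95.5% of all 35116 promoters. The longer ETS site CCGGAAGT, which contains GGAA, was in 0 of 28, against 10.8% of those genes and 4.1% of all promoters. Adjacent units, GGAAGGAA, which also contain GGAA, were in 3 of 28 (10.7%), against 4.9% and 3.7%. A gene counted if any of its promoters held the letters. The 28 members had 32 promoters and the 8984 genes 13180, so the genes had more windows each. The shares of all promoters are per promoter. RefSeq starts need not be those used in these cells. SIGLEC15 had 3.18 CPM in tagBFP from a start at 45825512, before its pair, and 9.27 from starts at 45837841 to 45838522. SLC17A7 had 24.8 CPM from starts at 49441551 to 49442360, and RUBCNL 7.95 from starts at 46387230 to 46387500. Those 3 stretches are shown with the paired units (on either strand) in capitals, since they are the only adjacent units in the matched member promoters. The pairs lie 32, 216 and 221 bases before the RefSeq start.
SIGLEC15, chr18:45825632-45825661, forward strand: ccccgcccgccTTCCTTCCcccaccacgcc
SLC17A7, chr19:49441725-49441754, reverse strand: gagtagcctggGGAAGGAAcagaattgggg
RUBCNL, chr13:46390245-46390274, reverse strand: tttcatctcatTTCCTTCCtgttttgtaca

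Among genes that met both ETV6 thresholds but missed that for sgERG, 0 of 16 matched genes had CCGGAAGT and 0 of 16 had GGAAGGAA. Among genes past the sgERG threshold with an ETV6_WT over tagBFP difference above -0.2, CCGGAAGT was in 0.6% of 154 and GGAAGGAA in 8.4%. The 16 genes had 22 promoters and the 154 had 269. Low shares of CCGGAAGT were therefore not particular to the members. These counts describe letters in short windows and say nothing of binding. A search for longer GGAA runs around the genes needs a genome sequence, which was not used here.

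Other stretches show the range, with GGAA or TTCC in capitals. SIGLEC15 had 6 in the 87 bases before its GENCODE start, which end 163 bases before the RefSeq start. MIB1 and its neighbour ABHD3 start on opposite strands, and 150 of the 152 bases between their annotated starts, written on the strand of ABHD3, had 4. The MIB1 transcript from that start, at 21704957, held an estimated 44.3 CPM in tagBFP. The MIB1 transcript from 21741320, further into the gene, held 514.2 CPM. PHOSPHO1 had 0 in the 150 bases before its RefSeq start.
SIGLEC15, chr18:45825425-45825511, forward strand: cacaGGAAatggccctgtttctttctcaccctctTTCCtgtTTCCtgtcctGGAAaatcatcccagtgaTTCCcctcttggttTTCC
ABHD3 and MIB1, chr18:21704806-21704955, reverse strand: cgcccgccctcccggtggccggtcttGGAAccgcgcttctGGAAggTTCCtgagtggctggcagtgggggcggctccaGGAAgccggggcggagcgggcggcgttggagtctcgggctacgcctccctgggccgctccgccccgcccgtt
PHOSPHO1, chr17:49230788-49230937, reverse strand: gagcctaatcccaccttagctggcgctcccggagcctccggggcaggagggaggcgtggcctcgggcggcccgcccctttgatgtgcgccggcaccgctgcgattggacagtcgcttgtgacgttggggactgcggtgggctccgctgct

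The targeted genes went in the direction of the labels. The ETV6 mean was 5.85 ± 0.38 CPM in tagBFP libraries, 480.4 ± 18.8 where ETV6_WT was induced and 378.0 ± 13.4 where ETV6_R399C was (SD, n = 3). The ERG mean was 521.2 ± 6.46 CPM in sgCtrl libraries and 105.7 ± 4.47 under sgERG, which is 20.3% of control, and 300.9 to 324.6 in the means of the first experiment. In the sgERG libraries ETV6 was lower too, at 6.6 ± 0.53 CPM against 13.1 ± 1.27 (edgeR log2 -1.0, adjusted p = 7.0e-05), as was RUNX1, named outside the rule, at 442.6 ± 9.37 against 606.9 ± 24.2 (edgeR log2 -0.47, adjusted p = 2.3e-05). Counts per gene do not separate reads of the ETV6::RUNX1 fusion from those of ETV6 and RUNX1, so which of these was lower was not tested. Libraries held 22040338 to 52481351 reads. Of 14 B-lineage markers, 13 stood above 1 CPM in all libraries and VPREB1 below 0.5, with a summed level of 6718.7 to 6900.8 CPM for tagBFP, 8598.0 to 8744.4 for ETV6_WT, 8258.5 to 8416.9 for ETV6_R399C, 10557.5 to 10646.8 for sgCtrl and 9492.8 to 9524.9 for sgERG. All 6 erythroid markers and the T-cell genes CD3D, CD3E, CD2 and CD7 were below 0.5 CPM in every library. Another T-cell marker, 2 myeloid and 2 stromal or endothelial markers stood above 1 CPM in all. The summed T-cell markers were 17.2 to 18.7 CPM for tagBFP, 13.1 to 14.2 for ETV6_WT, 19.4 to 21.4 for ETV6_R399C, 13.5 to 15.3 for sgCtrl and 13.1 to 15.9 for sgERG. In that order the myeloid sums were 17.5 to 19.4, 22 to 23.2, 18 to 19.3, 33.4 to 33.9 and 31.2 to 35.5, and the stromal and endothelial sums 39.3 to 39.6, 39.8 to 44.5, 44.2 to 44.8, 77 to 80.7 and 92.1 to 99.4. The part of these marker differences in the results below was not tested, and fewer cells expressing a gene cannot be told apart here from less RNA per cell.

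For 32 of the 34 members, all 3 libraries of the low group lay below all 3 of the other in each of the rule's 3 contrasts. The share of all tested genes with all libraries lower was 26.9% for ETV6_WT over tagBFP, 21.3% for ETV6_WT over ETV6_R399C and 14.7% for sgERG over sgCtrl. The rule chose on these contrasts, so nothing is read from the count. The edgeR quasi-likelihood test called 36.5%, 21.4% and 14.6% of all tested genes in them at an adjusted p below 0.05. The share for ETV6_WT over ETV6_R399C was 14.0% without ETV6_WT replicate 2, 14.0% without ETV6_R399C replicate 1 and 14.1% without ETV6_R399C replicate 2. The share for sgERG was 8.54% without sgCtrl replicate 1 and 8.57% without sgCtrl replicate 3.

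MDC1 and HOXC4 were the exceptions, and each was a member through single libraries. MDC1, an adaptor of the DNA damage response in the MHC region of chromosome 6, was listed at 0 CPM in 11 of the 15 libraries. It had 28.3 CPM in tagBFP replicate 2, 26.5 and 7.85 in ETV6_R399C replicates 2 and 3, and 2.42 in sgCtrl replicate 3. The tables also hold 4 transcripts of the same length, 7576 bases, that the annotation used here does not name. The sum of MDC1 and these 4 reached 132.1 CPM at most over all libraries, with group means of 116.1 for tagBFP, 112.7 for ETV6_WT, 130.3 for sgCtrl and 124.4 for sgERG. Where MDC1 was high, the unnamed transcripts were lower (91.3 CPM in tagBFP replicate 2 against 118.9 in replicate 1), and the sum differed little between groups.

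HOXC4, a homeobox transcription factor, had 8.69, 0.32 and 0.67 CPM with tagBFP and 0.32, 0.67 and 0.43 with ETV6_WT. It had 0.73, 0.44 and 8.8 with ETV6_R399C, so 1 library of each of those groups held its mean up. It had 17.6, 16.1 and 16.9 with sgCtrl and 17.6, 1.54 and 1.75 with sgERG. The groups overlap in all 3 contrasts. Without MDC1 and HOXC4 the median difference over the members was -1.33 for ETV6_WT over tagBFP (-1.41 with them), -1.10 for ETV6_WT over ETV6_R399C (-1.14) and -1.26 for sgERG over sgCtrl (-1.26). The medians of all tested genes were -0.01, -0.01 and 0.02.

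**Figure D1:**
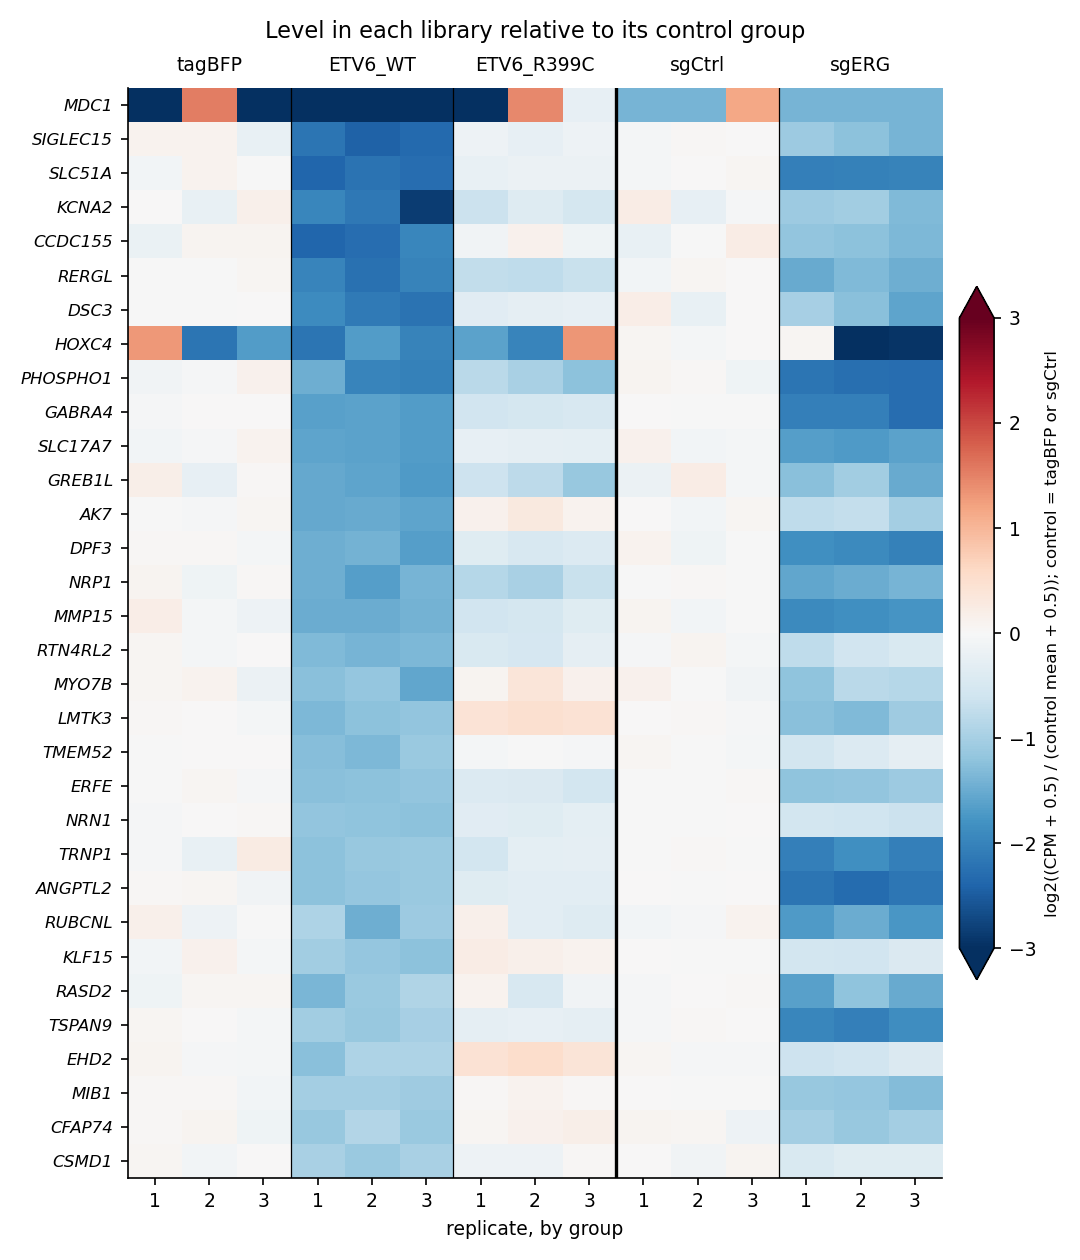
Each row is 1 of 32 of the 34 members and each column 1 of the 15 libraries; colour gives log2 of (CPM + 0.5) over the mean (+ 0.5) of tagBFP for the first 9 columns and of sgCtrl for the last 6. The ETV6_WT and sgERG columns are blue in every row, palest where the difference is small, except HOXC4 in sgERG replicate 1; the rows of MDC1 and HOXC4 change within groups.

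Levels in tagBFP varied widely among the members. CPM grows with transcript length, and by TPM, which corrects for it, NRN1 (236.1), GABRA4 (157.4) and MIB1 (74) led in tagBFP, and GREB1L (0.53) was lowest. In CPM the tagBFP means ran from 2.15 to 560.3 with a median of 10.4, against a median of 41.1 for the 10952 protein-coding genes that met the same level threshold, the 8 left-out genes aside. There were 9 below 5 CPM, 16 from 5 to 20, 6 from 20 to 100 and 3 above 100. With ETV6_WT, 8 members averaged below 1 CPM, where few reads carry the difference.

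Genes meeting both ETV6 thresholds numbered 56, and 34 of them (60.7%) also met the sgERG threshold, which 339 of the 10952 protein-coding genes (3.1%) met. Read the other way, 10.03% of those 339 met the ETV6 thresholds, against 0.511% of the 10952. Of the 56, 40 (71.4%) had a sgERG difference below 0, against 44.7% of the 10952, and their median sgERG difference was -0.71 against 0.02. The 34 include MDC1 and HOXC4, and the 10952 were not matched to the 56 on level. The overlap of 34 is the count the rule itself fixes, and no test was made of it.

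Differences in one experiment were only weakly related in size to those in the other. Across the 34 members, Pearson's r between the ETV6_WT and sgERG differences was 0.11 and Spearman's rho 0.21, and without MDC1 and HOXC4 they were 0.14 and 0.23. These are descriptions across genes chosen on both axes, and genes are not independent replicates. In 13 members the sgERG difference was the larger.

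**Figure D2:**
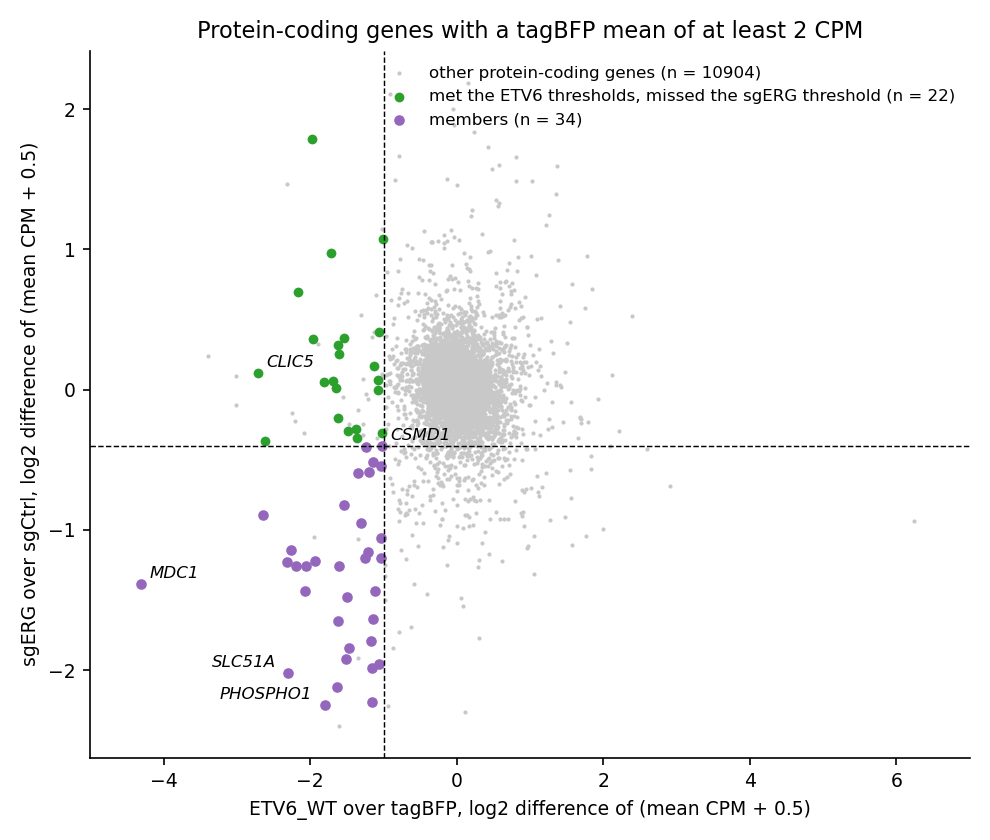
Each point is a protein-coding gene with a tagBFP mean of at least 2 CPM, placed by its ETV6_WT over tagBFP difference (x) and its sgERG over sgCtrl difference (y), both on the log2(mean CPM + 0.5) scale, with dashed lines at the thresholds of -1 and -0.4. The 34 members fill the lower left by construction, and the 22 genes in green met the ETV6 thresholds only.

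The thresholds cut through a continuum, and the scale bears on membership. On summed TPM, CFAP74, CSMD1, DSC3, EHD2, GREB1L, KCNA2, KLF15, MDC1, MIB1, MYO7B, NRN1, NRP1, RASD2 and TSPAN9 did not meet the rule, and the other 20 members did. The level threshold was then 2 TPM. DSC3 (1.13 TPM in tagBFP) and KCNA2 (1.59 TPM) missed that level only and met every difference threshold. GREB1L, MDC1, MYO7B, NRP1 and RASD2 were below 2 TPM and missed a difference threshold too. CSMD1 lay just inside for ETV6_WT (-1.015) and for sgERG (-0.404), with ABHD3 (-0.985) and C6orf222 (-0.363) just outside. NRP1 was nearest inside for ETV6_WT over ETV6_R399C (-0.667) and IRX3 outside (-0.53), and GREB1L (2.15 CPM) and CNN1 (1.94 CPM) bracketed the level threshold. CLIC5, a chloride channel family gene, was the lowest with ETV6_WT of the 22 genes that missed the sgERG threshold only. It averaged 42.59 CPM with tagBFP and 6.06 with ETV6_WT, but 51.78 with sgCtrl and 56.23 with sgERG.

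Carriers and channels numbered 3, and folds below are ratios of group means in CPM with no offset. SLC51A encodes a subunit of a bile acid and steroid exporter (ENSG00000163959.9, chromosome 3, 196211487 to 196243178, forward strand, hg38). It had 16.7, 19 and 17.6 CPM with tagBFP, 2.99, 3.39 and 3.23 with ETV6_WT, and 15, 15.6 and 15.6 with ETV6_R399C. It had 25.7, 27 and 28.3 with sgCtrl and 6.18, 6.26 and 6.4 with sgERG. The ETV6_WT and sgERG libraries lay far below every control, at 5.53-fold and 4.3-fold lower means. SLC51A overlaps PCYT1A on the other strand, which held 62.3 CPM with tagBFP and 59.38 with ETV6_WT, so exchange of reads between them is uncertain where strand setting is not known.

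KCNA2, a voltage-gated potassium channel, had 3.8, 3.16 and 4.25 CPM with tagBFP and 0.60, 0.46 and 0.09 with ETV6_WT. With ETV6_R399C it had 2.21, 2.75 and 2.43, below each tagBFP library but closer to them than to ETV6_WT. It had 3.84, 2.61 and 3.12 with sgCtrl and 1.23, 1.29 and 0.98 with sgERG. The means were 9.75-fold and 2.73-fold lower, from 2 to 169 reads in a library. The ETV6_WT mean was only 0.38 CPM, and with the offset of 0.5 the folds were 4.8 and 2.21. SLC17A7, which loads vesicles with glutamate, averaged 27.9 ± 2.11 CPM with tagBFP, 8.7 ± 0.33 with ETV6_WT, 32.9 ± 2.76 with sgCtrl and 10.1 ± 0.30 with sgERG (SD, n = 3 each), a similar 3.21-fold and 3.25-fold.

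Membrane receptors and surface proteins formed the largest group, 15 members with the signalling genes. SIGLEC15, a lectin that binds sialic acid (ENSG00000197046.11, chromosome 18, 45825512 to 45844080, forward strand), had 13.4, 13.5 and 10.7 CPM with tagBFP and 2.34, 1.9 and 2.1 with ETV6_WT. It had 11.2, 10.4 and 11.2 with ETV6_R399C, which overlaps tagBFP. It had 4.99, 5.38 and 5.33 with sgCtrl and 2.19, 1.96 and 1.68 with sgERG. Its means were 5.91-fold and 2.69-fold lower. SIGLEC15 is one of the 3 genes whose paired GGAA units are printed above.

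DSC3, a cadherin of desmosomes, had 7.63, 7.6 and 7.76 CPM with tagBFP and 1.69, 1.39 and 1.27 with ETV6_WT. It had 5.91, 6.24 and 6.41 with ETV6_R399C, then 4.34, 3.1 and 3.72 with sgCtrl and 1.62, 1.26 and 0.91 with sgERG. The low groups were clear of the others, with 5.28-fold and 2.94-fold lower means. DSC3 and NRN1 were the members among 24 listed genes reported as high in leukaemia with ETV6::RUNX1.

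GABRA4, a subunit of the GABA type A receptor (ENSG00000109158.10, chromosome 4, 46918900 to 46994407, reverse strand), had 201.4, 209.2 and 210.2 CPM with tagBFP, 66.1, 68.2 and 64.2 with ETV6_WT and 139.5, 143.9 and 149.1 with ETV6_R399C. The 3 groups formed 3 separate levels. It had 375.0, 369.2 and 366.8 with sgCtrl and 89.1, 89.4 and 75.6 with sgERG, a 4.37-fold lower mean against 3.13-fold with ETV6_WT. GABRB1, another subunit gene of that receptor, overlaps it on the other strand and averaged 2.99 CPM with tagBFP, 1.28 with ETV6_WT, 4.38 with sgCtrl and 1.22 with sgERG, and reads of GABRB1 may belong to GABRA4.

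ANGPTL2, a secreted angiopoietin-like protein, had 47.2, 47.5 and 42.3 CPM with tagBFP, 19.2, 20.3 and 21 with ETV6_WT and 35.7, 36.4 and 36.4 with ETV6_R399C. It had 95.3, 93.9 and 95.1 with sgCtrl and 20.3, 18.7 and 20.6 with sgERG. Its sgERG mean was 4.77-fold lower and its ETV6_WT mean 2.26-fold lower, although the low levels were close to each other. RALGPS1, which overlaps it on the other strand, held 15.49 CPM with tagBFP and 16.99 with ETV6_WT.

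TSPAN9, a tetraspanin, showed the same shape: 57.1, 55.2 and 53.2 CPM with tagBFP, 26.5, 24.9 and 27.2 with ETV6_WT, and 45.7, 46.4 and 45.9 with ETV6_R399C. It had 117.9, 123.0 and 121.8 with sgCtrl and 30.8, 28.9 and 32.8 with sgERG, 3.92-fold lower in the mean. Again the low levels were near each other while the 2 control groups were not.

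NRP1, a co-receptor for semaphorins and vascular growth factor, averaged 4.56 ± 0.37 CPM with tagBFP, 1.29 ± 0.16 with ETV6_WT, 7.02 ± 0.15 with sgCtrl and 2.2 ± 0.15 with sgERG. RTN4RL2, of the Nogo receptor family, averaged 17 ± 0.70, 6.35 ± 0.19, 27.1 ± 1.48 and 17.8 ± 1.92 CPM in the same order. Both were clear of their controls, RTN4RL2 with the smaller sgERG difference (-0.60).

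NRN1, the surface protein neuritin, averaged 269.6 ± 7.32 CPM with tagBFP and 117.0 ± 2.08 with ETV6_WT, but 181.7 ± 2.14 with sgCtrl and 120.5 ± 3.97 with sgERG, so its mean was 2.3-fold lower with ETV6_WT and 1.51-fold lower with sgERG. CSMD1, a membrane regulator of complement, was at the edge of the rule, with 8.85 ± 0.42 and 4.13 ± 0.27 CPM in the first experiment and 10 ± 0.76 and 7.45 ± 0.29 in the second. TMEM52, a membrane protein, averaged 17.3 ± 0.12 and 7.01 ± 0.64, then 6.16 ± 0.30 and 4.52 ± 0.50. All 3 had a larger difference with ETV6_WT than with sgERG.

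Signalling genes spanned a wide range of levels. MIB1, a ubiquitin ligase that acts on Notch ligands, averaged 560.3 ± 26.1 CPM with tagBFP, 273.7 ± 4.71 with ETV6_WT, 582.6 ± 18.9 with ETV6_R399C, 877.7 ± 12.4 with sgCtrl and 382.2 ± 24.9 with sgERG. LMTK3, a membrane kinase, averaged 67.9 ± 2.41 with tagBFP and 28.2 ± 1.61 with ETV6_WT, and 135.3 ± 4.07 with sgCtrl and 58.5 ± 5.63 with sgERG. ERFE, the hormone erythroferrone that lowers hepcidin, averaged 37.6 ± 1.2 and 15.9 ± 0.38, then 64.4 ± 1.35 and 28.6 ± 1.27. These 3 had nearly the same size of difference in both experiments, with ETV6_WT and sgERG differences of -1.03 and -1.20, -1.25 and -1.20, and -1.22 and -1.16. RASD2, a Ras-like GTPase, averaged 2.58 ± 0.23 and 0.92 ± 0.23, then 4.75 ± 0.14 and 1.44 ± 0.30 CPM.

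RERGL, a small GTPase-like gene, had 12.2, 12.2 and 13 CPM with tagBFP, 2.78, 2.25 and 2.74 with ETV6_WT and 7.21, 7.06 and 7.67 with ETV6_R399C. It had 8.42, 9.42 and 9.01 with sgCtrl and 2.79, 3.28 and 2.93 with sgERG. The mean was 4.8-fold lower with ETV6_WT and 2.98-fold lower with sgERG, and ETV6_R399C stood between tagBFP and ETV6_WT in every library.

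Transcription and chromatin genes, MDC1 and HOXC4 aside, numbered 4. DPF3, a subunit of BAF chromatin remodelling complexes, had 13.8, 13.8 and 13 CPM with tagBFP, 4.59, 4.78 and 3.93 with ETV6_WT and 10.3, 9.51 and 10 with ETV6_R399C. It had 12.2, 10.3 and 11.2 with sgCtrl and 2.82, 2.62 and 2.39 with sgERG. The means were 3.05-fold and 4.31-fold lower. TRNP1, a nuclear protein of neural progenitors, had 5.42, 4.71 and 6.7 CPM with tagBFP, 2.09, 2.29 and 2.34 with ETV6_WT and 3.66, 4.46 and 4.55 with ETV6_R399C. It had 25.2, 25.9 and 25.1 with sgCtrl and 5.73, 6.69 and 5.72 with sgERG. TRNP1 with sgERG was thus at the level of the tagBFP libraries of the first experiment. KLF15, a zinc finger factor, averaged 8.37 ± 0.73 and 3.53 ± 0.25, then 8.29 ± 0.12 and 5.66 ± 0.30 CPM. GREB1L, a gene of kidney development, averaged 2.15 ± 0.39 and 0.37 ± 0.06, then 1.7 ± 0.31 and 0.42 ± 0.15 CPM.

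Among the enzymes, PHOSPHO1, a phosphatase of bone mineralization (ENSG00000173868.11, chromosome 17, 49223362 to 49230766, reverse strand), had the lowest sgERG difference of all members (-2.25). It had 2.57, 2.73 and 3.12 CPM with tagBFP, 0.70, 0.34 and 0.31 with ETV6_WT and 1.38, 1.18 and 0.91 with ETV6_R399C. It had 5.24, 5.09 and 4.45 with sgCtrl and 0.69, 0.63 and 0.61 with sgERG. This gene had no GGAA in the promoter stretch printed above. MMP15, a membrane-bound metalloproteinase, had 13.2, 10.9 and 10.2 CPM with tagBFP, 3.71, 3.71 and 3.93 with ETV6_WT and 7.45, 7.8 and 8.71 with ETV6_R399C. It had 27.5, 24.7 and 25.8 with sgCtrl and 6.57, 6.93 and 7.21 with sgERG. Its mean was 3.02-fold lower with ETV6_WT and 3.77-fold lower with sgERG. AK7, an adenylate kinase of cilia, averaged 41.5 ± 1.44 and 13.9 ± 0.37, then 31.9 ± 1.71 and 17.8 ± 1.97 CPM.

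The remaining members described here serve membrane traffic, the cytoskeleton or other functions. CCDC155, which links meiotic telomeres to the cytoskeleton, had 3.38, 4.29 and 4.29 CPM with tagBFP, 0.37, 0.42 and 0.66 with ETV6_WT and 3.64, 4.41 and 3.58 with ETV6_R399C. It had 1.18, 1.43 and 1.78 with sgCtrl and 0.36, 0.33 and 0.27 with sgERG, from as few as 8 reads in a library. CCDC155 with ETV6_R399C overlapped tagBFP.

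CFAP74, a ciliary protein, averaged 6.74 ± 0.50 and 3.04 ± 0.36 in the first experiment but 0.99 ± 0.14 and 0.22 ± 0.03 CPM in the second. RUBCNL, an autophagy protein, averaged 8.51 ± 0.97 and 3.58 ± 0.74, then 14.2 ± 0.96 and 4.22 ± 0.45. EHD2, an ATPase of caveolae, averaged 7.71 ± 0.43 and 3.52 ± 0.50, then 28.6 ± 1.00 and 19.5 ± 1.34. MYO7B, a myosin of the brush border, averaged 2.91 ± 0.36 and 0.87 ± 0.19, then 2.18 ± 0.22 and 0.89 ± 0.20. EHD2 had one of the smaller sgERG differences (-0.55), and RUBCNL (-1.64) the lowest of these 4.

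**Figure D3:**
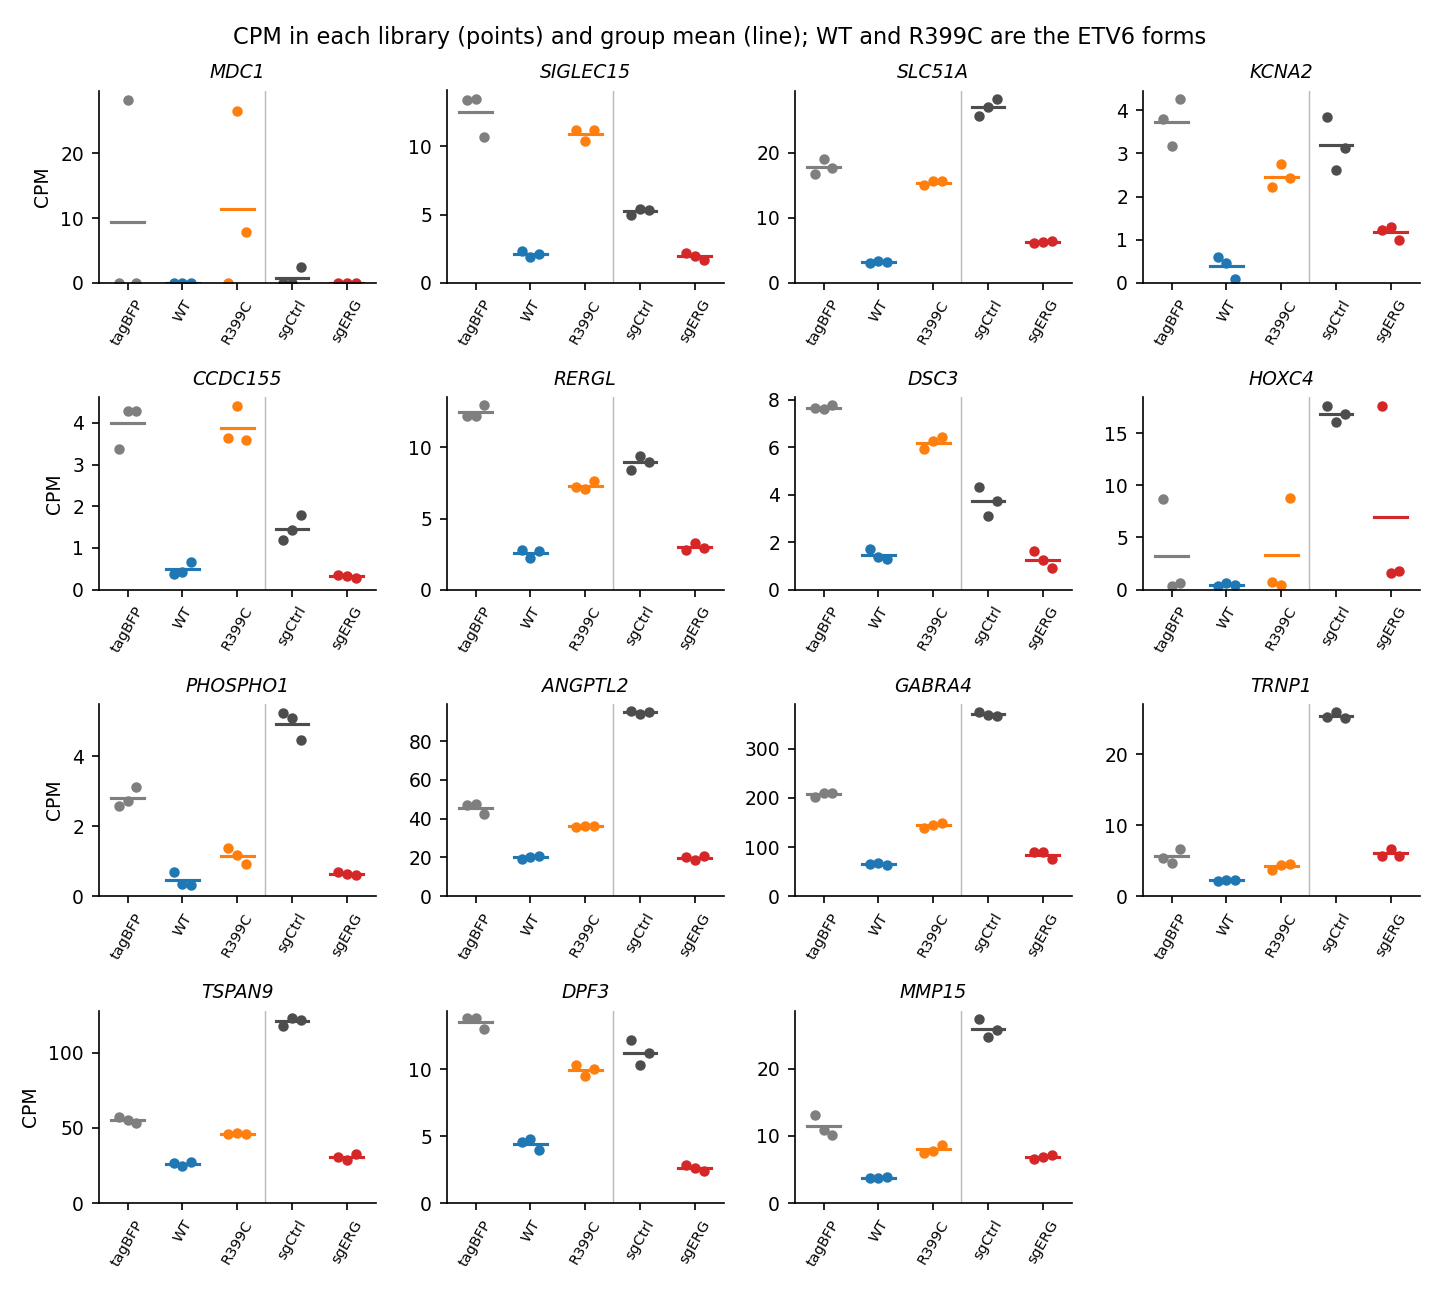
Each panel is 1 member, taken from the 10 with the lowest ETV6_WT over tagBFP difference and, of the others, the 6 with the lowest sgERG over sgCtrl difference; points are CPM in single libraries and lines are group means, on a linear axis from 0. MDC1 and HOXC4 scatter within groups, while in the other panels the ETV6_WT points lie below all tagBFP points and the sgERG points below all sgCtrl points.

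The 2 control populations did not start from the same levels. Among others, in TSPAN9, EHD2, MMP15, ANGPTL2, HOXC4 and TRNP1 the sgCtrl mean was at least double that of tagBFP, and in DSC3, MDC1, CFAP74, CCDC155, TMEM52 and SIGLEC15 it was at most 50% of it. Vector, sort and time of doxycycline differ between the experiments and cannot be told apart. Differences between experiments in the size of a member's change were not tested.

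With ETV6_R399C the members were near tagBFP or differed by less than with ETV6_WT. The rule has no threshold on this contrast, but it used both groups, and a gene cannot be a member if ETV6_R399C lowers it as far as ETV6_WT. The edgeR test with Benjamini-Hochberg adjustment called 16 members lower (all genes tested, 22.1%), 3 higher (18.8%) and 15 neither. Nothing is read from these counts. The median difference was -0.23 over the members and 0.02 over all tested genes. With an offset for transcript length the count called lower was 9.

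The deepest differences with ETV6_R399C were those of PHOSPHO1 (edgeR log2 -1.30 ± 0.25 SE, adjusted p = 0.00171), GREB1L (-1.15 ± 0.25, adjusted p = 0.00301) and NRP1 (-0.99 ± 0.15, adjusted p = 3.8e-04). On the log2(mean CPM + 0.5) scale the ETV6_R399C difference of these 3 was over 50% of the ETV6_WT difference; by edgeR log2 this held for NRP1 (-0.99 against -1.81) but not for PHOSPHO1 (-1.30 against -2.63) or GREB1L (-1.15 against -2.51). RERGL, GABRA4, DPF3, ERFE, NRN1 and SLC17A7 were also called lower with edgeR and in every alternative fit, at log2 -0.79 to -0.30. TRNP1 lost its call in 10 alternatives, DSC3 in 5 and SLC51A in 4, and TSPAN9, MMP15, ANGPTL2 and RTN4RL2 lost theirs with the length offset only. With that offset the log2 of DSC3 turned from -0.33 to 0.20, while RTN4RL2 (-0.48), ANGPTL2 (-0.30) and TRNP1 (-0.43) kept about their size and TSPAN9 (-0.18) and MMP15 (-0.27) were smaller.

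EHD2, AK7 and LMTK3 went the other way with ETV6_R399C. LMTK3 averaged 92.4 ± 2.5 CPM with ETV6_R399C against 67.9 ± 2.41 with tagBFP, an edgeR log2 of 0.42 ± 0.04 SE (adjusted p = 1.1e-05), and kept its call in every alternative. EHD2 averaged 10.7 ± 0.62 against 7.71 ± 0.43 CPM (edgeR log2 0.45 ± 0.10, adjusted p = 0.00322) and lost its call with the length offset, where its log2 was 0.54 (adjusted p = 0.353). AK7 had 45.8, 51 and 45 against 41.1, 40.3 and 43.1 CPM (edgeR log2 0.16 ± 0.05, adjusted p = 0.0248), and the call was lost without tagBFP replicate 1, without tagBFP replicate 2 and without ETV6_R399C replicate 2.

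**Figure D4:**
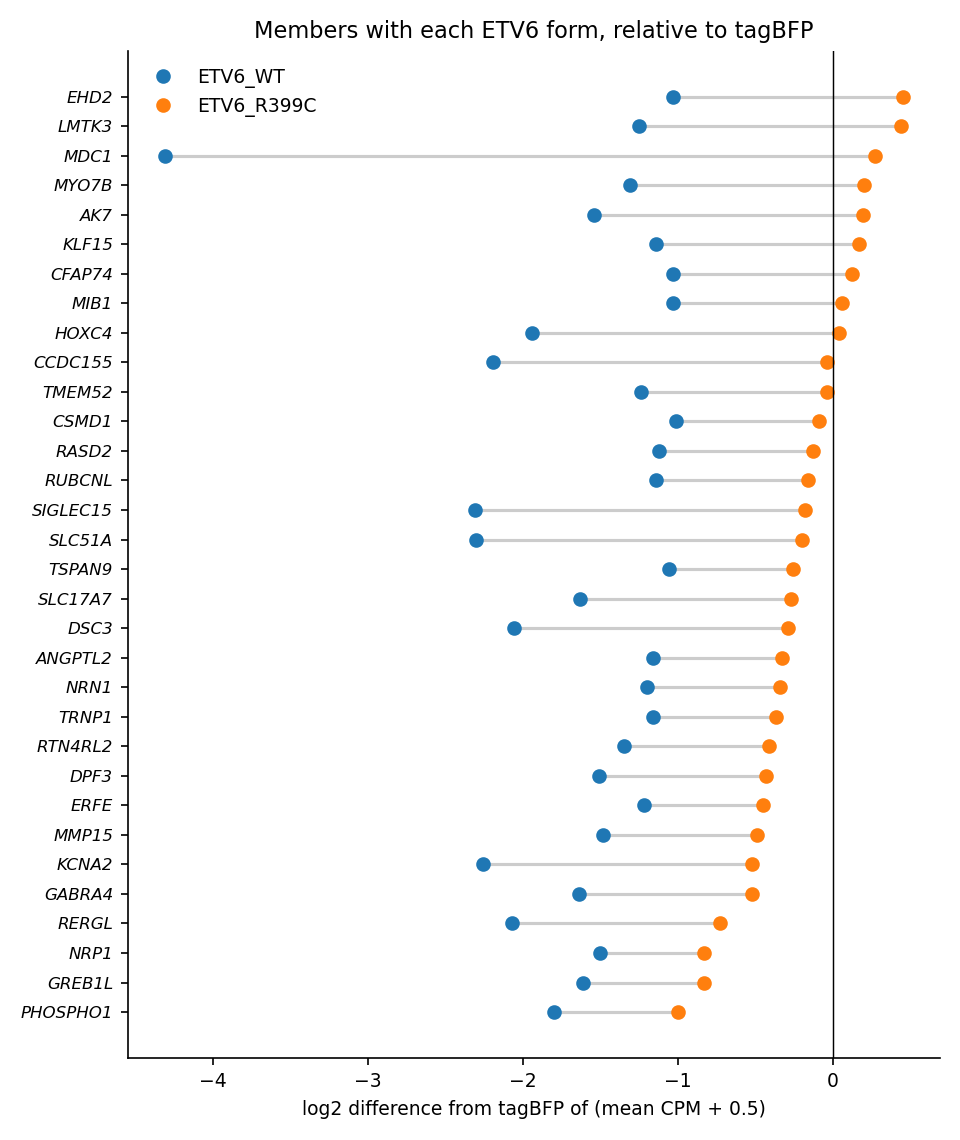
For 32 of the 34 members, the blue point is the ETV6_WT and the orange point the ETV6_R399C difference from tagBFP, in log2 of (mean CPM + 0.5). Blue points all lie at -1.01 or lower, and orange points run from -1.0 (PHOSPHO1) to 0.45 (EHD2).

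Start sites within the members were compared to see whether a whole gene moved. Transcripts whose starts lie within 1000 bases were grouped, and groups with at least 1 CPM in tagBFP were kept, which gave 52 groups. In 12 members there were several, 30 groups in all, of which 26 had all ETV6_WT libraries below all tagBFP libraries and 25 all sgERG libraries below all sgCtrl libraries. These values share reads with the rule and are a description. In ERFE all 3 start groups were lower with each factor, and in SLC51A all 5.

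Some members were uneven, NRN1 and LMTK3 among them. A CSMD1 group from 4032100 was not wholly lower in either experiment. The only MYO7B group kept, from 127619982, held 2.22 CPM with tagBFP and 0.67 with ETV6_WT. That group averaged 0.54 ± 0.20 CPM with sgCtrl and 0.40 ± 0.36 with sgERG, which overlap. A MIB1 group from 21798084 was not wholly lower with ETV6_WT, nor were groups of CFAP74 (from 2003714) and CCDC155 (from 49394543) with sgERG. The CFAP74 and CCDC155 groups were near the floor in that experiment, where few reads carry a difference. They averaged 0.06 and 0.27 CPM with sgCtrl, and 0.01 and 0.10 with sgERG. NRN1 transcripts from the upstream start, at 6006967 on chromosome 6, averaged 249.6 ± 7 CPM with tagBFP and 96.4 ± 2.07 with ETV6_WT, and 170.3 ± 3.69 with sgCtrl and 110.6 ± 6.46 with sgERG. The transcript of NRN1 from 6002963, further into the gene, averaged 19.9 ± 1.58 and 20.6 ± 0.53, then 11.4 ± 1.62 and 9.94 ± 2.54, and overlapped in both experiments. LMTK3 from its start at 48513189 on chromosome 19 averaged 65.7 ± 1.3 and 24.9 ± 1.42, then 114.5 ± 6.28 and 40.7 ± 7.88. From 48511804, LMTK3 averaged 2.18 ± 1.54 and 3.35 ± 1.85, then 20.8 ± 2.39 and 17.8 ± 4.98 CPM. Reads shared between transcripts of a gene are divided by estimate, so values of single transcripts are less certain than those of genes.

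The members lay on 18 chromosomes, with 4 each on chromosomes 1, 18 and 19. Members within 200000 bases of each other formed 3 pairs. SLC17A7 and CCDC155 are 11407 bases apart on chromosome 19 with PTH2 and GFY between them. CFAP74 and TMEM52 are 2678 bases apart on chromosome 1 with no protein-coding gene between, and MIB1 and GREB1L are 179540 bases apart on chromosome 18 around ESCO1, ABHD3 and SNRPD1.

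Neighbouring genes that were not members were not chosen by the rule, although the window was set after the data had been seen. Within 100000 bases of a member, 80 other protein-coding genes without overlap were tested with edgeR. Of these, 23 (28.8%) were called lower with ETV6_WT and 12 (15%) lower with sgERG, against 18.9% and 7.74% of all genes tested. The 80 were protein-coding and tested in both experiments, while all genes tested include other classes, so the sets are unlike. In both experiments 6 (7.5%) were called lower, against 2.18%: ABHD3, DSC2, ZDHHC19, GPR17, ESPNL and SLC43A1. The count was 3 with the length offset, without sgCtrl replicate 1, without sgCtrl replicate 3 and without sgERG replicate 1. It was 6 of 49 within 50000 bases and 8 of 140 within 200000. No test was made of the shares, and neighbours of 1 member share a region.

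ABHD3, an enzyme that acts on phospholipids, starts 152 bases from the annotated, less used start of MIB1 on the other strand, at the interval printed above. It had 169.3, 166.2 and 171.0 CPM with tagBFP and 86.4, 84.7 and 84 with ETV6_WT (edgeR log2 -0.98 ± 0.03 SE, adjusted p = 6.9e-10). It had 137.6, 134.1 and 132.3 with sgCtrl and 52.2, 57.7 and 50 with sgERG (edgeR log2 -1.36 ± 0.05, adjusted p = 1.1e-07). With ETV6_R399C its edgeR log2 against tagBFP was 0.04. Its direction was that of MIB1 with ETV6_WT and with sgERG, and it was the gene nearest outside the ETV6_WT threshold. Together with GREB1L, this made 3 genes of the chromosome 18 region lower with ETV6_WT and with sgERG. The other genes between MIB1 and GREB1L were not lower in both: ESCO1 had an edgeR log2 of 0.06 with ETV6_WT (adjusted p = 0.259) and -0.25 with sgERG (adjusted p = 0.0265), and SNRPD1 -0.17 (adjusted p = 0.0195) and 0.08 (adjusted p = 0.199).

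DSC2, the desmocollin gene 16025 bases from DSC3, had 4.5, 4.2 and 4.1 CPM with tagBFP and 2.55, 2.18 and 1.94 with ETV6_WT (edgeR log2 -0.93 ± 0.15 SE, adjusted p = 5.1e-04). It had 5.68, 6.03 and 5.76 with sgCtrl and 3.24, 3.01 and 2.76 with sgERG (edgeR log2 -0.97 ± 0.12, adjusted p = 3.0e-04). ZDHHC19, a palmitoyl transferase gene, starts 50 bases from the annotated start of SLC51A on the other strand. The SLC51A start groups with at least 1 CPM in tagBFP lay further into the gene, from 196216504 on. ZDHHC19 was near 1 CPM, with 1.14, 1.01 and 1.00 with tagBFP and 0.14, 0.19 and 0.04 with ETV6_WT. It had 2.02, 1.51 and 1.55 with sgCtrl and 0.60, 0.09 and 0.34 with sgERG. All calls of ABHD3, DSC2 and ZDHHC19 held in every alternative fit, while GPR17, ESPNL and SLC43A1 each lost one in 6, 6 and 7 alternatives.

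LIMS2, an adhesion adaptor 652 bases from MYO7B, went with 1 factor only by the test. It had 16.9, 17.2 and 16.9 CPM with tagBFP and 6.17, 5.77 and 5.26 with ETV6_WT (edgeR log2 -1.56 ± 0.07 SE, adjusted p = 1.1e-08). It had 4.04, 2.48 and 2.25 with sgCtrl and 2.46, 2.11 and 2.32 with sgERG, which overlap (edgeR log2 -0.36 ± 0.23, adjusted p = 0.329). The difference between these 2 effects was not tested.

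**Figure D5:**
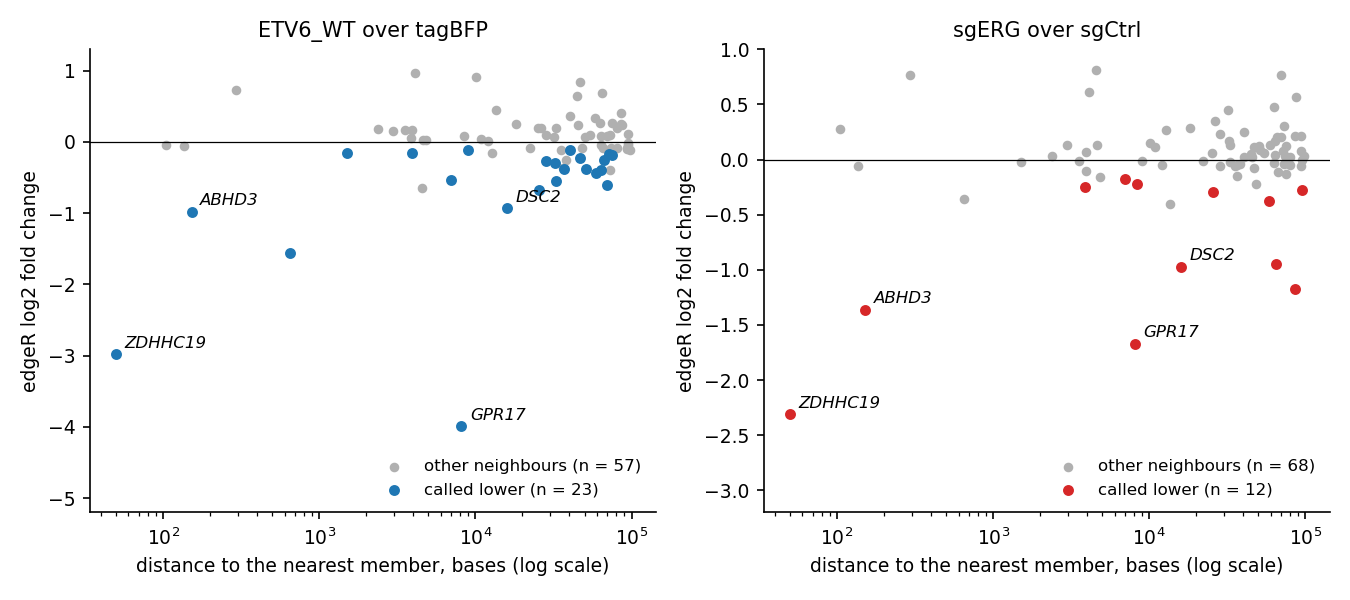
Each point is 1 of 80 protein-coding genes within 100000 bases of a member, by distance between annotated gene edges (log scale) and edgeR log2 fold change. ETV6_WT over tagBFP is on the left and sgERG over sgCtrl on the right. Coloured points are called lower at an adjusted p below 0.05, 23 on the left and 12 on the right; ABHD3 and ZDHHC19 are the nearest of them.

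Lists that bear on the 2 factors were counted beside the members. Of all genes tested, edgeR called 18.9% lower and 17.6% higher with ETV6_WT, and 7.74% lower and 6.89% higher with sgERG. From the list of genes reported as high in leukaemia with ETV6::RUNX1, 23 were tested. Of these, edgeR called 12 lower and 7 higher with ETV6_WT (median log2 -0.13, against 0.00 over all genes). With sgERG it called 13 lower and 1 higher (median -0.33). The list includes the members DSC3 and NRN1, and KCNN1, which met all the numbers of the rule. Like the other lists, it was chosen with earlier results of these data known, so nothing is read from its counts. CLIC5, BIRC7 and KCNN1 had the smallest p with ETV6_WT, at edgeR log2 -2.81, -2.11 and -1.34. Another list held genes named as targets of GGAA repeats in Ewing sarcoma, where an ETS fusion protein acts, and 12 of them were tested. With ETV6_WT 1 was lower and 3 higher, and with sgERG 5 were lower and 1 higher, CDKN1C (edgeR log2 0.73). Whether GGAA repeats activate each gene of this list was not tested. None of its genes was a member. Of 17 tested ETS family genes, 10 were higher and 2 lower with ETV6_WT, the induced ETV6 included, and 5 higher and 4 lower with sgERG, the repressed ERG included. SPIB, an ETS factor of B cells, was higher in both (edgeR log2 0.83 ± 0.04 SE, adjusted p = 2.9e-08, and 1.68 ± 0.07, adjusted p = 1.4e-07), and no ETS gene was a member.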

How the data were processed

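RNA was column-purified with DNase, and libraries kept the strand, per the labels' protocols. Per the file headers, the authors deposited 1 Salmon table per library with estimated counts, TPM and effective transcript lengths. The submitters' processing notes name Salmon 0.11.3 and hg38 but no strand setting. The deposited expected counts of 167268 transcripts were summed over 33367 genes of GENCODE 29. The annotation named 90.3% of transcripts, and the others, with 6.67% to 7.56% of reads, were left out. CPM is relative to the reads of named genes. The deposited TPM served as an alternative scale only.

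Differences are log2 of mean CPM with an offset of 0.5. Tests were edgeR 4.0.16 (quasi-likelihood, TMM, default filter, R 4.3.3) on rounded counts, adjusted over all genes, with 1 fit of 9 libraries and 1 of 6. The SE is the log2 fold change divided by the square root of F. DESeq2 1.42.0 was an alternative. The code was tested on simulated data. By rule every member is named, though 2 of the 34 are not reported here, with all libraries printed for the 10 lowest with ETV6_WT and, of the others, the 6 lowest with sgERG. Neighbours were chosen by distance after values had been seen. CLIC5, LIMS2 and the neighbours were named for their place. The members and lists were chosen with earlier results of these data known.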

Additional observations from a re-analysis of the deposited data

How the results depend on the processing

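The rule gave 31 to 36 genes when 1 library was left out, and 26 members were kept each time (lost at least once were, among others, CFAP74, CSMD1, EHD2, GREB1L, HOXC4, MDC1 and TMEM52). It gave 37 genes with an offset of 0.1, 25 with an offset of 1, 34 on TMM-scaled CPM and 26 on summed TPM, of which 20 were members; 16 members were kept in all alternatives.

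Members called lower with ETV6_R399C were 9 with the length offset and 13 to 16 leaving out 1 library, and those called higher 2 to 3. The share of all genes called for ETV6_R399C over tagBFP was 24.7% with no filter, 24.1% with the length offset and 33.8% to 39.7% leaving out 1 library. For ETV6_WT over ETV6_R399C it was 12.1%, 8.68% and 14.0% to 22.4%, with 14.0% without ETV6_WT replicate 2 and ETV6_R399C replicate 1 in turn and 14.1% without ETV6_R399C replicate 2. For ETV6_WT over tagBFP it was 22.9%, 20.4% and 29.9% to 36.6%. For sgERG over sgCtrl it was 8.54% to 16.8% leaving out 1 library, the lowest without sgCtrl replicate 1 and 8.57% without sgCtrl replicate 3. More genes are tested with no filter; otherwise the cause was not tested.

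Libraries of the same number in different groups had r of -0.078 to 0.17 in the first experiment and -0.175 to 0.02 in the second. Those of different numbers had r of -0.248 to 0.26 and -0.082 to 0.191. These r, over 10455 genes, are not correlations of levels. The highest r in each experiment was of different numbers, so no pairing by number was seen. With the replicate block, members called lower and higher with ETV6_R399C were 16 and 3, and 38.9% of all genes were called in ETV6_R399C over tagBFP, 18.6% in ETV6_WT over ETV6_R399C, 36.2% in ETV6_WT over tagBFP and 11.2% in sgERG over sgCtrl. The planned search for GGAA runs around start sites was not run, as no genome sequence was used here. Members of few reads, such as KCNA2, CCDC155, GREB1L and CFAP74, are limited by depth.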

Other observations

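Some neighbours of members moved otherwise than the members did. CALML6, a calmodulin-like gene 294 bases from TMEM52, had 5.61, 4.81 and 5.54 CPM with tagBFP and 7.1, 9.21 and 9.98 with ETV6_WT (edgeR log2 0.73 ± 0.13 SE, adjusted p = 8.2e-04). It had 15.3, 11.8 and 15.9 with sgCtrl and 22.9, 25.3 and 26.4 with sgERG (edgeR log2 0.77 ± 0.11, adjusted p = 8.7e-04). With ETV6_R399C, where TMEM52 (edgeR log2 -0.06) and CFAP74 (0.11) were not called, CALML6 had 12.4, 11.8 and 10.6 CPM (edgeR log2 1.10, adjusted p = 3.4e-05). GNB1, a G protein subunit on the same side, was higher in both as well, at edgeR log2 0.20 ± 0.02 (adjusted p = 4.0e-05) and 0.35 ± 0.04 (adjusted p = 1.6e-04), and with ETV6_R399C at 0.24 (adjusted p = 9.7e-06).

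By SLC17A7 and CCDC155, FCGRT, the neonatal Fc receptor, rose with ETV6_WT and fell with sgERG. It had 13.5, 14.2 and 11.2 CPM with tagBFP and 20.2, 21.5 and 20.2 with ETV6_WT (edgeR log2 0.68 ± 0.09 SE, adjusted p = 1.2e-04), then 65.7, 67.8 and 64.6 with sgCtrl and 34.8, 32.9 and 36.3 with sgERG (edgeR log2 -0.95 ± 0.05, adjusted p = 1.2e-06). RCN3, a calcium-binding protein gene beyond it, had 17.6, 15 and 17.1 CPM with sgCtrl and 6.78, 7.62 and 8.08 with sgERG (edgeR log2 -1.17 ± 0.09, adjusted p = 1.9e-05), and with ETV6_WT its edgeR log2 was 0.41 ± 0.16 (adjusted p = 0.0712). These genes were named after their values had been seen.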
